A study of Mus musculus with 28 samples.

Results

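The Integrator complex genes described here are the 10 numbered subunit genes from Ints1 to Ints10, taken by name from the gene tables of a nascent RNA study of Elongin A (EloA), in which each table lists 24984 gene rows. All 10 had a row in all 3 tables. Integrator is a multi-subunit complex that binds RNA polymerase II (Pol II) early in transcription. Its endonuclease cuts the 3′ ends of small nuclear RNAs (snRNAs) and the nascent RNA of paused Pol II, and the protein phosphatase 2A (PP2A) that it carries counteracts the kinases that release Pol II into elongation. In pluripotent cells, as in other cells, it is an essential complex.

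Bru-seq, which labels new RNA with 5-bromouridine (BrU) and captures it with an antibody, was used on wild-type (WT) mouse embryonic stem cells (mESCs) and on mESCs labelled EloA null, a pair of CCE28 lines. Steady-state cells received 2 mM BrU for 10 min and no drug. The other cells were held for 60 min in 1 μM flavopiridol (FP), a P-TEFb inhibitor that blocks productive elongation, and after the wash they were given 2 mM BrU for 5 min or 10 min. All cells were grown on embryonic fibroblast feeders with LIF and 2 kinase inhibitors and were depleted of feeders before labelling. Each of the 6 groups had 2 libraries, duplicates of 1 line per genotype. The p-values therefore measure the spread between these duplicates, and genotype and line cannot be told apart.

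The values were deposited as reads per kilobase and per size of the library (RPKM). Library sizes worked out from the steps between values ran from 9857527 reads in the 5-min recovery to 28547356 reads in the 10-min recovery. With these sizes all 10 genes gave whole reads when divided over the introns of 1 RefSeq transcript, so the levels below are those of intronic nascent RNA. All 8 pluripotency markers were above 0.5 RPKM in every library, while between 0 and 2 of 8 fibroblast markers were, with Col1a1 the highest of those. The summed fibroblast markers were between 1.252 and 2.59 RPKM in WT and between 0.744 and 1.87 RPKM in libraries labelled EloA null. These sums overlapped in steady state. They were lower in null libraries at 5 min, at 1.04 and 0.744 against 1.31 and 1.45. The same held at 10 min, at 1.87 and 1.46 against 2.59 and 2.03. In these bulk samples fewer cells of a type and less RNA per cell cannot be told apart. The 4 neural markers summed to 0.852 and 0.876 RPKM in null libraries against 0.668 and 0.655 in WT in steady state, and to 0.544 and 0.561 against 0.341 and 0.339 at 5 min, and overlapped at 10 min. The 4 endoderm markers summed to at most 0.664 RPKM. Of the pluripotency markers, Tfcp2l1 was lower in null libraries when averaged over the conditions (-0.22 log2; limma, adjusted p = 0.0323), and Pou5f1 was at 10.6 and 16.5 RPKM against 7.36 and 8.48 in WT in steady state without passing (limma, adjusted p = 0.227). The part of these markers in the results was not tested. Nascent RNA of the targeted gene Eloa was higher, not lower, in the libraries labelled EloA null, at 1.96 and 1.89 against 1.18 and 1.16 RPKM in steady state. It did not pass in any condition (limma, adjusted p = 0.0999, 0.249 and 0.176). Intronic RNA does not show the protein, which the paper examined in both lines by immunoblot. The name follows the label throughout. The first steady-state library of the null group is null by title and wild type by another label. Its Eloa level, 1.96 RPKM, was near the 1.89 of the second null library and above both WT libraries.

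The genes differed in size and setting. In GRCm38.p6 the shortest was Ints5 on chromosome 19 (chr19:8892987-8897890, plus strand), with 2 exons and 1.61 kb of counted intron. The longest was Ints9 on chromosome 14 (chr14:64950045-65039835, plus strand), which spans 89.8 kb. Ints6 (chr14:62676325-62761163, minus strand) lies on the same chromosome and spans 84.8 kb. Ints1 (chr5:139751282-139775702, minus strand) had the most exons, 47, and the highest GC content, 58.4%, against 37.0% in Ints6. Ints2 (chr11:86210681-86257609, minus strand) lies wholly inside Brip1os, a transcript of the opposite strand, and although the libraries were directional and reads were separated by strand, it is not stated that the counting used strand. Between 41 and 316 reads stood behind each Ints5 value and between 29 and 746 behind each Ints1 value, against between 850 and 14373 for Ints6.

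The start regions of Ints2 and Ints6 are shown because their nascent RNA differed between the genotypes in opposite directions in all 3 conditions. The averaged rise of Ints6, 0.40 log2, was below the median of its chromosome, 0.49, and turned negative when centred on it. Whether the motifs bear on these differences was not tested. RefSeq windows of 250 bases before to 50 after the start were at hand for 6 of the genes (Ints1, Ints2, Ints3, Ints4, Ints6 and Ints7). The windows are chr11:86257545-86257844 for Ints2 and chr14:62761063-62761362 for Ints6, both GRCm38.p6 and read 5′ to 3′ on the minus strand, and capitals mark matches to any of 8 motifs searched on both strands.

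Ints2: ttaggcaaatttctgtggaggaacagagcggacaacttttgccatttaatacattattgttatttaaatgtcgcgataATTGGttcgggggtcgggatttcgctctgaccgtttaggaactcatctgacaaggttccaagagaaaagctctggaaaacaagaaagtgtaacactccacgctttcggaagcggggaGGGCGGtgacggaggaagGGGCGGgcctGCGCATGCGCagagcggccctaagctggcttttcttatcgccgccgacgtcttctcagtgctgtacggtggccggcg

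Ints6: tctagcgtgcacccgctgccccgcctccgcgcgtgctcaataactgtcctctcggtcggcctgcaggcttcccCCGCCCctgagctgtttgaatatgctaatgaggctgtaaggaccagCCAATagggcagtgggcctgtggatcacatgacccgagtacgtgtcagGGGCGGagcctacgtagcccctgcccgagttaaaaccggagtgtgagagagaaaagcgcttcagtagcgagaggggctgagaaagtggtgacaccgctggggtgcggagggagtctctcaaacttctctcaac

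The motifs were the GC box GGGCGG, the CCAAT box CCAAT, the TATA box TATAAA, the ETS site CCGGAAGT, the NRF1 core GCGCATGC, the E-box CACGTG, the CRE TGACGTCA and the YY1 core AAGATGGC. The Ints2 window held 2 GC boxes, at bases 196 and 214 counted from its 5′ end, and 1 CCAAT box at base 79. Its NRF1 core matches at bases 224 and 226 are 1 stretch, GCGCATGCGC, which matches on both strands. The Ints6 window also held 2 GC boxes, at bases 74 and 168, and 1 CCAAT box at base 120, but no NRF1 core. Thus GC and CCAAT boxes were in both windows. Of all 32851 windows, 35.7% held a GC box, 37.4% a CCAAT box and 2.71% an NRF1 core. Of the 6 windows of these genes, 3 held a GC box, 5 a CCAAT box and 2, those of Ints2 and Ints3, an NRF1 core. None of the 6 windows of these genes held the TATA box, which 13.6% of all windows held. The GC content was 52.3% in the Ints2 window and 60.0% in the Ints6 window, and the median of all windows was 52.7%.

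In steady-state WT cells, Ints6 had the highest level of the 10 genes per length, 5.04 ± 0.54 RPKM (SD, n = 2), and Ints1 the lowest, 1.21 ± 0.11 RPKM. Ints7 (4.08 RPKM) and Ints3 (3.89 RPKM) followed Ints6, and their libraries overlapped each other. Ints5 (3.31 RPKM) came next, followed by Ints8 (2.76 RPKM) and Ints10 (2.71 RPKM), which overlapped each other. Ints2 (2.298 RPKM), Ints9 (1.99 RPKM) and Ints4 (1.83 RPKM) came below them, each apart from the next. The median of all tested genes was 1.804 RPKM, and 9 of the 10 genes were above it. In steady-state libraries labelled EloA null Ints6 was again first, at 6.96 ± 0.73 RPKM, and Ints1 last, at 1.36 ± 0.25 RPKM. There 7 of the 10 genes were above the median of all tested genes, 1.89 RPKM. At 5 min and at 10 min of recovery, 2 of the 10 were above the median of their genotype and time.

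**Figure D1:**
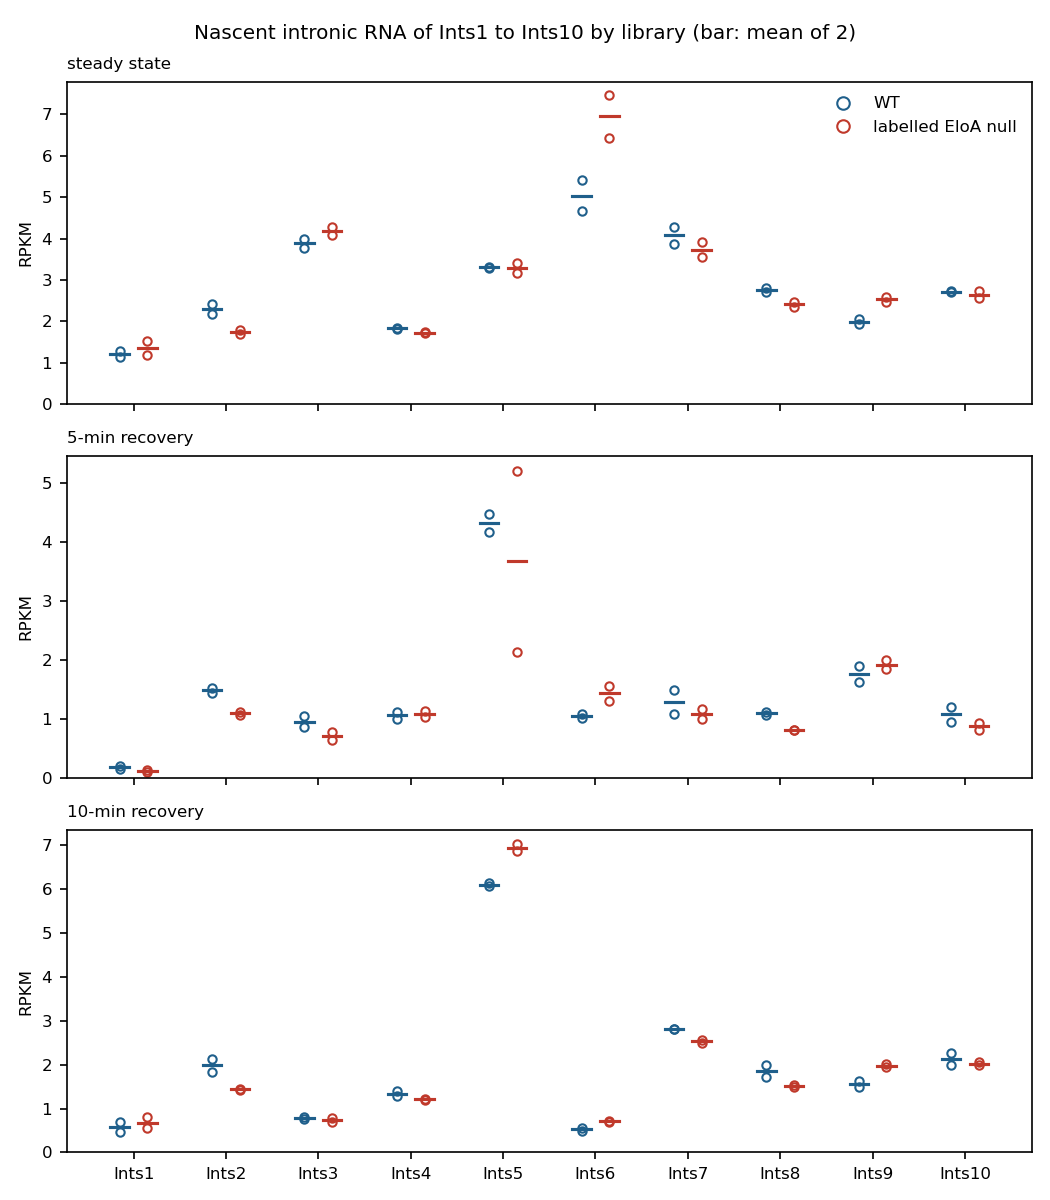
RPKM of the 10 genes in each library of the 3 conditions, with WT in blue and libraries labelled EloA null in red. Circles are single libraries and bars are means of 2. Ints6 is highest in steady state in both genotypes, Ints5 is highest in both recovery conditions, and the 2 null libraries of Ints5 in the 5-min recovery lie at 2.13 and 5.21 RPKM.

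The genotypes were compared within each condition by limma on log2(RPKM + 0.1), which understates changes of low genes, over all genes with a mean above 0.5 RPKM in either genotype. All 10 genes were tested in steady state and in the 10-min recovery, and 9 in the 5-min recovery, where Ints1 was too low. None of them passed an adjusted p of 0.05 in any condition, and the background was also 0%, that is 0 of 11347, 8985 and 10241 genes. At an unadjusted p under 0.05 there were 3, 2 and 2 of the genes in the 3 conditions, where 18.4%, 9.42% and 20.5% of all tested genes were. None of the 10 passed a 1.5-fold ratio of means, which 7.21%, 5.4% and 9.41% of tested genes did upward in steady state, the 5-min and the 10-min recovery, and 2.1%, 6.72% and 3.01% downward. Without overlap between genotypes, 3 were higher and 3 lower in null libraries in steady state (background 32% and 21.4%), 1 and 4 in the 5-min recovery (15.4% and 25%), and 3 and 4 in the 10-min recovery (33.5% and 21.8%). In steady state both shares were near the background, while in the recovery conditions the lower genes made up 4 of 9 and 4 of 10. The median log2 difference of the genes was -0.02, -0.27 and -0.07 in the 3 conditions, beside 0.03, -0.06 and 0.06 for all tested genes.

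Across the 3 tables the picture was the same for 3 genes: Ints6 was higher, and Ints2 and Ints8 lower, in both null libraries than in both WT libraries each time. Of 8217 genes tested in all tables, 8.79% were higher and 10.1% lower in this way. The genotype difference was therefore also averaged over the 3 conditions in 1 limma fit of the 12 libraries, a test added after the data were seen. In it Ints2 and Ints8 fell and Ints6 and Ints9 rose (both turned negative when centred on their chromosome), 4 of the 9 genes that could be tested, where 19% of all genes were called, 10.5% upward and 8.46% downward. The 5 others, Ints3, Ints4, Ints5, Ints7 and Ints10, lay between -0.16 and -0.06 and did not pass. Ints1 was not in this test. Without the steady-state library whose labels conflict, Ints2, Ints6, Ints8 and Ints9 still passed (limma, adjusted p = 0.0123, adjusted p = 0.0261, adjusted p = 0.0219 and adjusted p = 0.0499).

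**Figure D2:**
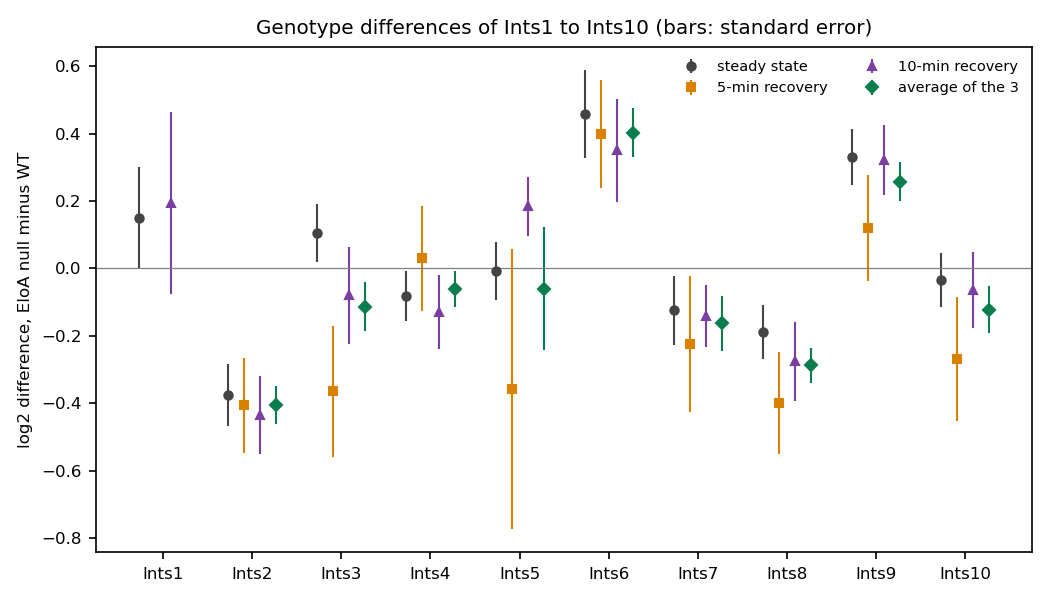
Log2 difference of the libraries labelled EloA null minus WT for each gene in the 3 conditions and averaged over them, with standard errors. Ints2 and Ints8 lie below 0 and Ints6 and Ints9 above 0 in all 3 conditions, though not when centred on their chromosome; Ints1 has no value in the 5-min recovery or the average.

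Of the backbone subunits, which hold the modules of the complex together, Ints2 was lower in null libraries in every condition. In steady state Ints2 was at 2.18 and 2.42 RPKM in WT and at 1.69 and 1.801 in null libraries. After 5 min of recovery it was at 1.45 and 1.53 in WT and at 1.07 and 1.13 in null libraries, and in the 10-min recovery at 1.84 and 2.13 against 1.42 and 1.46. All 6 null libraries were below both WT libraries of their condition. The averaged difference was -0.41 ± 0.06 log2 (SE), or 1.32-fold lower, with a limma adjusted p of 0.00276. Brip1os, whose span covers Ints2, was also lower in all null libraries, for example 2.55 and 2.42 against 3.08 and 3.37 RPKM in steady state, and whether the pair shares reads was not tested. Among the single conditions the adjusted p of Ints2 was 0.17 in steady state.

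Ints7, another backbone subunit, was at 4.29 and 3.87 RPKM in WT and at 3.92 and 3.55 in null libraries in steady state, so the groups overlapped. In the 10-min recovery it was at 2.80 in both WT libraries and at 2.56 and 2.50 in null libraries, without overlap. Its averaged difference, -0.16 ± 0.08 log2, had a limma adjusted p of 0.198. Ints1, the largest subunit and main scaffold, was at 1.29 and 1.13 RPKM in WT and at 1.18 and 1.54 in null libraries in steady state. In the 10-min recovery it was at 0.691 and 0.470 against 0.813 and 0.546, and the groups overlapped in both. At 5 min the Ints1 values of 0.210 and 0.159 in WT and 0.140 and 0.113 in null libraries were under the limit for testing.

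Ints8, which with Ints5 forms the part that holds PP2A, was lower in null libraries in every condition. It was at 2.72 and 2.81 RPKM in WT and at 2.47 and 2.35 in null libraries in steady state. At 5 min the values were 1.13 and 1.08 against 0.811 and 0.816, and in the 10-min recovery 1.72 and 1.99 against 1.49 and 1.53. The averaged difference of Ints8 was -0.29 ± 0.05 log2, 1.22-fold lower, with a limma adjusted p of 0.00774. Ccne2, the cyclin E2 gene whose span shares 5622 bases with that of Ints8 on the opposite strand, overlapped between the genotypes in steady state and was lower in null libraries in both recovery conditions. Ints5 was at 3.32 and 3.29 RPKM in WT and at 3.16 and 3.42 in null libraries in steady state, a log2 difference of -0.01 ± 0.09. In the 10-min recovery both null libraries of Ints5 were above WT, 7.02 and 6.87 against 6.06 and 6.13. At 5 min its null libraries, at 2.13 and 5.21, stood on either side of WT, at 4.47 and 4.16, and its averaged difference was 0.15 without the first of them, which did not pass, and -0.27 without the second, with a limma adjusted p of 0.0118.

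Ints6, which ties PP2A to the rest of the complex, was higher in null libraries in every condition. In steady state it was at 4.66 and 5.42 RPKM in WT and at 7.48 and 6.44 in null libraries. After 5 min of recovery the values were 1.10 and 1.03 against 1.57 and 1.31, and in the 10-min recovery 0.566 and 0.499 against 0.710 and 0.699. The averaged difference was 0.40 ± 0.07 log2, 1.32-fold higher, with a limma adjusted p of 0.00774. Serpine3, a gene on the opposite strand that shares 15919 bases with the Ints6 span, was also higher in all null libraries, at 2.81 and 2.19 against 1.65 and 1.84 RPKM in steady state.

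Ints9, the inactive partner of the endonuclease Ints11, starts 2274 kb from the lower end of Ints6 on chromosome 14. It was at 2.06 and 1.93 RPKM in WT and at 2.59 and 2.47 in null libraries in steady state, and at 1.63 and 1.49 against 2.01 and 1.94 in the 10-min recovery. In the 5-min recovery the groups overlapped, at 1.90 and 1.63 in WT and 2.01 and 1.84 in null libraries. The averaged difference was 0.26 ± 0.06 log2, 1.20-fold higher, with a limma adjusted p of 0.0172. This call did not hold without WT replicate 2 of steady state (adjusted p = 0.0579) or without null replicate 1 of the 10-min recovery (adjusted p = 0.0564, both limma).

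Both genes that rose are on chromosome 14, where most tested genes were higher in null libraries. The median averaged difference of the 320 tested genes of this chromosome was 0.49 log2, against -0.01 for the 7897 genes elsewhere, and 76.9% of them were called higher, against 7.84% elsewhere. Of the 320, 195 had a larger difference than Ints6 and 259 a larger one than Ints9. Within 2 Mb of Ints6 the 22 other tested genes had a median of 0.48, and within 2 Mb of Ints9 the 16 others a median of 0.55. With each gene centred on the median of its chromosome, the averaged difference of Ints6 was -0.11 log2 (limma, adjusted p = 0.327) and that of Ints9 was -0.26 (limma, adjusted p = 0.0137). The chromosomes of Ints2 and Ints8 had medians of -0.07 and -0.02, and both genes kept a called fall after centring. How many of all genes were called after centring is not given here. The direction of Ints6 and Ints9 thus reversed with the centring: Ints6 did not pass a test against the median of its chromosome, and Ints9 was lower than that median. The p-values of this test measure the spread between duplicate libraries, not the spread among the genes of the chromosome.

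**Figure D3:**
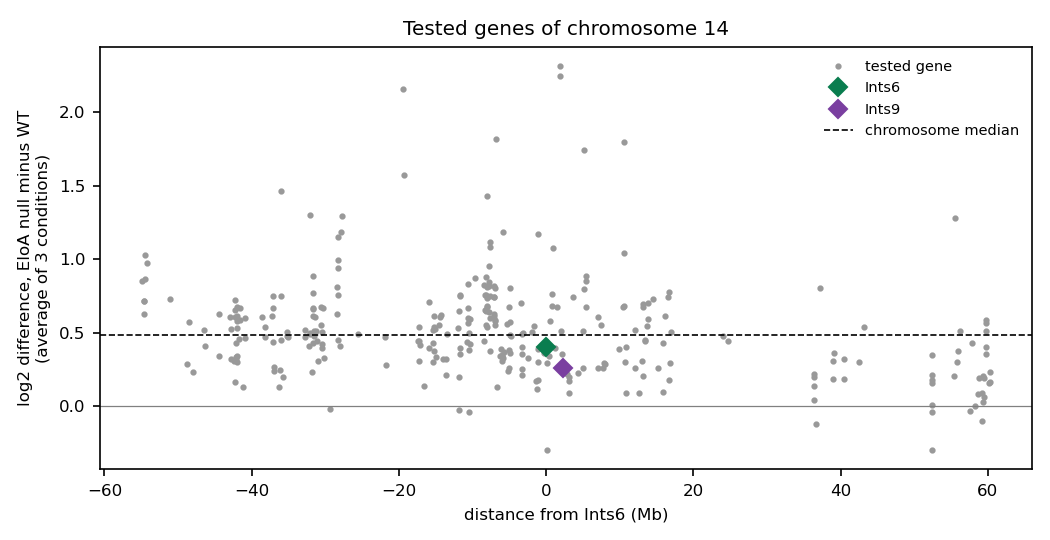
Averaged log2 difference, libraries labelled EloA null minus WT, of the 320 tested genes of chromosome 14 by distance from Ints6 in Mb. Ints6 (0.40) and Ints9 (0.26) lie above 0 but below the dashed chromosome median of 0.49.

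Ints4, which joins Ints9 and Ints11 in the cleavage module, was at 1.83 RPKM in both WT libraries and at 1.72 and 1.73 in null libraries in steady state. Its groups did not overlap there, but the averaged difference was -0.06 ± 0.05 log2 (limma, adjusted p = 0.474). Ints10, of the module with Ints13 and Ints14, was at 2.73 and 2.70 RPKM in WT and at 2.73 and 2.57 in null libraries in steady state. Its averaged difference was -0.12 ± 0.07 log2 with a limma adjusted p of 0.26.

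Ints3, which also belongs to the single-strand DNA-binding SOSS complex, was higher in both null libraries than in WT in steady state and lower in both at 5 min. It was at 4.00 and 3.77 RPKM in WT and at 4.29 and 4.08 in null libraries in steady state. At 5 min it was at 1.05 and 0.868 in WT and at 0.792 and 0.653 in null libraries, and at 10 min the groups overlapped. The genotype differences of the 2 conditions differed by -0.47 ± 0.18 log2, which did not pass the interaction test of limma (adjusted p = 0.703, unadjusted p = 0.0271). None of the 10 genes passed this test, which called 0.132% of 11347 genes for the 5-min recovery and 0.00881% for the 10-min recovery.

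Recovery from FP was described by the RPKM in each recovery library over the steady-state mean of the same genotype, with no test. RPKM is relative to the reads of the library, so the ratio does not show how much RNA the cells made in all. In WT the ratios of the 10 genes ran from 0.153 to 1.31 at 5 min and from 0.106 to 1.84 at 10 min. Ints5 was the 1 gene above its steady-state level, at 1.35 and 1.26 at 5 min and at 1.83 and 1.85 at 10 min in the WT libraries. Ints1 was lowest at 5 min, at 0.174 and 0.132, and reached 0.572 and 0.389 at 10 min. Genes of like length, with a span from 0.8 times to 1/0.8 times that of the gene, had medians of 0.837 at 5 min and 1.40 at 10 min for Ints5, and of 0.494 and 1.30 for Ints1.

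Ints6 and Ints9 are of similar length and had unlike recovery. Ints6 was at 0.217 and 0.204 of its WT steady-state level at 5 min and at 0.112 and 0.0989 at 10 min. Ints9 was at 0.954 and 0.820 at 5 min and at 0.817 and 0.749 at 10 min. The medians of genes of like length were 0.597 for Ints6 and 0.635 for Ints9 at 5 min, and 0.575 and 0.581 at 10 min, so Ints6 was below and Ints9 above them. In libraries labelled EloA null the ratios of Ints6 were 0.225 and 0.188 at 5 min and 0.102 and 0.100 at 10 min. At 10 min Ints6 stood above 0.42% of the 833 genes of like length in WT.

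Ints3 had a similar low recovery, at 0.270 and 0.223 at 5 min and at 0.208 and 0.196 at 10 min in WT. In null libraries it was at 0.189 and 0.156 at 5 min and at 0.188 and 0.165 at 10 min. The like-length medians in WT were 0.444 and 0.860, and in null libraries Ints3 stood above 1.2% of the genes of like length at 10 min. Between 5 and 10 min the WT mean ratio of Ints6 went from 0.211 to 0.106 and that of Ints3 from 0.247 to 0.202, while Ints7 went from 0.317 to 0.687, Ints8 from 0.400 to 0.671, and Ints10 from 0.399 to 0.783. Ints2 and Ints4 were at 0.648 and 0.581 at 5 min and at 0.863 and 0.732 at 10 min. In each genotype and time 4 of the 10 genes were above, and 6 below, the median of genes of like length.

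**Figure D4:**
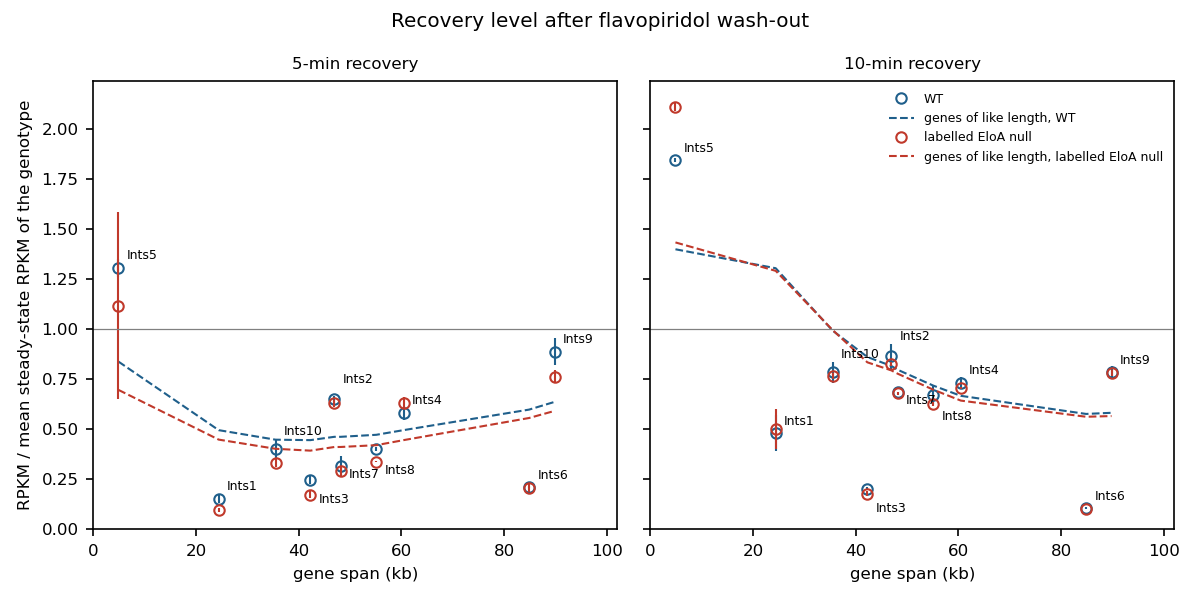
Recovery RPKM, as a ratio to the steady-state mean of each genotype, against gene span in kb, at 5 min and 10 min. Circles are means of 2 libraries, vertical lines join the 2 libraries, and dashed lines are the medians of genes of like length for each gene. Ints5 lies above 1, Ints1, Ints3 and Ints6 lie below the dashed lines at both times, and Ints9 lies above them.

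Of 6 other Integrator subunit genes, 5 were tested in steady state and 4 in the average. None of them passed an adjusted p or 1.5-fold in any condition, and their median averaged difference was -0.07 log2 beside 0.00 for all genes. Ints11, the endonuclease, was at 2.03 and 2.03 RPKM in WT and at 1.96 and 1.96 in null libraries in steady state, and its averaged difference was -0.04 ± 0.07. The averaged differences of Ints12, Ints13 and Ints14 were -0.18, -0.09 and -0.06. E130309D02Rik was at 1.49 and 1.54 in WT and at 1.54 and 1.64 RPKM in null libraries in steady state, and Ints6l, a relative of Ints6, was below the limit for testing in all 3 tables. The 3 core PP2A genes, Ppp2r1a, Ppp2ca and Ppp2cb, had averaged differences of -0.07, -0.17 and -0.12, and none passed (limma, adjusted p = 0.461, 0.138 and 0.51).

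The partners of Ints3 in the SOSS complex held the largest averaged difference of these lists. Nabp1, a single-strand DNA-binding protein, was at 7.68 and 7.97 RPKM in WT and at 5.63 and 4.74 in null libraries in steady state. At 5 min it was at 2.29 and 1.95 against 1.18 and 1.30, and in the 10-min recovery at 6.81 and 6.89 against 3.54 and 3.94. It was past 1.5-fold without overlap in all 3 conditions, and it fell by 0.73 ± 0.07 on the averaged log2 scale (limma, adjusted p = 0.000583). Its alternative partner Nabp2 went the other way in steady state, at 0.749 and 0.650 in WT and at 0.871 and 0.819 in null libraries, with a limma adjusted p of 0.363. Inip, the third SOSS subunit, had an averaged difference of 0.08 and did not pass (limma, adjusted p = 0.488).

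Of 8 snRNA promoter and little elongation complex genes, 0 of the 5 tested in the average passed. Snapc2 alone was past 1.5-fold without overlap, at 1.63 and 1.44 in null libraries against 0.986 and 0.932 RPKM in WT in steady state. Its groups overlapped at 5 min, at 0.624 and 0.861 in null libraries against 1.38 and 0.783 in WT, and also at 10 min. Of 5 mRNA cleavage genes (Cpsf1, Cpsf2, Cpsf3, Cpsf4 and Sympk), 0 passed in the average, with differences between -0.13 in Cpsf3 and 0.11 in Sympk. The list of snRNA genes held the 5 rows whose symbols start with Rnu, of which Rnu73b is named for a small nucleolar RNA. Reads were kept only where they aligned uniquely, and how many near-identical copies of these genes the genome holds was not examined, so their levels are uncertain. Of the 4 tested, none passed in the average. Rnu6 was at 11.8 and 13.4 in WT and at 1.86 and 3.89 RPKM in null libraries in the 10-min recovery, but its groups overlapped in the other conditions. The reads behind the Rnu rows were not counted and may be few, so no genotype difference is read from them. In the 5-min recovery Rnu73b was at 25.7 and 21.1 in WT and at 11.8 and 15.5 in null libraries. Rnu11 was at 0.939 and 0.731 in WT against 0.536 and a listing at 0. Its values above 0 fell as library size rose (9857527, 12666277 and 17272752 reads), as an equal number of reads in each would give. Rnu7 was at 8.12 and 6.32 in WT and at 6.71 and 6.95 in null libraries in the same condition, and its groups overlapped. Rnu12 was listed at 0 in all libraries but the 2 WT libraries of steady state. There it was at 0.279 and 0.239 RPKM in libraries of 23896847 and 27923484 reads, again as an equal number of reads would give.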

How the data were processed

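Bru-seq nascent RNA was analysed in 12 libraries, 2 per genotype and condition, grouped by title. The other 16 samples of the series were not analysed here. The authors aligned reads to mm10 with bowtie2, kept unique alignments, separated reads by strand, counted reads in RefSeq genes with featureCounts 1.6.1, normalized with edgeR and deposited RPKM values in 1 table per condition, without pooling replicates. Mean columns were not used. Library synthesis was directional, and whether the gene counts were made per strand is not given in the sources used here.

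Library sizes were worked out from the steps between RPKM values. Between 98.8% and 99.1% of 12399 genes with introns then gave whole reads (tolerance 0.02) over the introns, and between 2.99% and 3.93% over the span, while the study's methods name whole genes. Of the rows, 24420 matched GRCm38.p6 by symbol, 423 by older symbol, and 141 did not match. Library sizes set the precision, and no count test was run.

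limma 3.58.1 in R 4.3.3 was run with an intensity trend on log2(RPKM + 0.1), on genes with mean RPKM above 0.5 in either genotype, with Benjamini-Hochberg adjustment over all tested genes (threshold 0.05), and was tested on simulated data. An exact permutation test of 2 against 2 libraries cannot go below p = 0.333. The sources used here do not say whether libraries with the same replicate number share a day or batch, so the block was kept as an alternative. Alternatives were other pseudocounts, filters and scalings, removal of length, GC or chromosome trends, a fit of all libraries, a replicate block and leaving out each library. Named were all 10 genes, Eloa and the overlapping neighbours Brip1os, Serpine3 and Ccne2. The neighbours Mir7037, Dtl and 4931440J10Rik also overlap a gene of the set but their levels were not described. Members of fixed lists were named where they passed 1.5-fold without overlap or where their list had at most 6 tested genes. The genes and lists were chosen with earlier results of these data known. Promoter windows are from RefSeq (GRCm38.p6).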

Additional observations from a re-analysis of the deposited data

How the results depend on the processing

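No single-condition call existed to lose: the count of genes passing the adjusted limma p stayed at 0 in steady state and in the 10-min recovery under every alternative run, and became 2 (Ints2 and Ints8, limma, adjusted p = 0.0492 and adjusted p = 0.0398) in the 5-min recovery when all 12 libraries were fitted together. That fit called 132, 532 and 264 genes in the 3 conditions, against 0 in separate fits. The count past 1.5-fold became 1 (Ints6) in steady state with the GC trend removed, and between 0 and 1 (Ints5) in the 5-min recovery without a library. The interaction count for the 5-min recovery was between 0 and 1 (Ints5) without a library.

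In the averaged test the replicate block gave 4 calls, as without it, and changed no call of the 10 genes in any fit; the sources do not say what the replicate numbers share (r = 0.101, 0.119 and 0.103 between the replicate differences of the 2 genotypes). Leaving out a library gave between 3 and 5 calls. The main averaged fit called 19% of all 8217 genes. That share is not given here for the block or for the fits without a library, so these counts have no background. Centring on the chromosome turned 2 higher and 2 lower calls into 4 lower ones, with Ints10 at -0.21, Ints6 at -0.11 (not called) and Ints9 at -0.26. The share of all genes called in the centred fit is not given here, so this count has no background to be read against. By condition the centring gave Ints6 -0.042, -0.042 and -0.17 and Ints9 -0.17, -0.32 and -0.20. Without WT replicate 2 of the 5-min recovery Ints7 was called at -0.23.

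The median difference in steady state was -0.081 with library-median centring, -0.060 with quantile normalization, -0.039 and -0.061 without the length and GC trends, -0.13 with chromosome centring, and from -0.040 to -0.014 without a library. In the 10-min recovery it was -0.17, -0.16 and -0.19 with library, quantile and chromosome centring, and from -0.11 to -0.0056 without a library. In the 5-min recovery it ran from -0.41 to -0.11 without a library. With the GC trend removed Ints1 was at -0.19 and -0.24 in steady state and the 10-min recovery, Ints10 at 0.00031 in steady state and Ints5 at -0.10 in the 10-min recovery, where removing the length trend gave Ints5 -0.091. Without a library, the ranges that crossed 0 were in steady state -0.025 to 0.32 for Ints1, -0.061 to 0.047 for Ints5 and -0.076 to 0.0072 for Ints10. They were -0.047 to 0.11 for Ints4 and -0.98 to 0.27 for Ints5 in the 5-min recovery, and -0.055 to 0.44 for Ints1, -0.17 to 0.0061 for Ints3 and -0.16 to 0.028 for Ints10 in the 10-min recovery. The average of Ints5 ran from -0.27 to 0.15. The median recovery ratio at 5 min, 0.399 in WT and 0.334 in null libraries, was 0.636 and 0.603 when divided by the median of all genes. In null libraries at 10 min, 0.692 became 0.679 by that division. Against WT steady state the null ratios were 0.313 and 0.637. The cause of these shifts was not tested.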
